A study of Mus musculus with 9 samples.

Results

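The comparison set mouse embryonic cortical neurons treated with an ion-charged nanostructure, in either of 2 ion forms, against neurons treated with the non-charged peptide amphiphile (PA). Membership followed the treatment labels, and all 9 of the 9 libraries of the series entered. There were 3 libraries of PA, 3 of the nanostructure charged with Na+ (Na+ ICN) and 3 of the one charged with K+ (K+ ICN). The mean of Na+ ICN and K+ ICN, with equal weight for each ion, was set against PA, and a gene was counted only if it moved the same way in both ion groups. Every culture received a nanostructure, from a 5 mM stock used at 200 µM with 80 µl laid on the settled cells, 50% of the medium was exchanged at 48 h, and RNA was taken at 72 h. Libraries kept the strand, started from RNA with A tails and were sequenced as single reads. The labels name the cells only as embryonic cortical neurons from mouse brain and give no strain, genotype, sex, embryonic day or count of animals. The libraries are described as biological replicates, with no word on whether each had its own dissection. All p-values below refer to the spread among these 9 cultures, which may be technical. No untreated culture is among the 9, and the labels give no chemistry beyond the charge and the ion. A change shared by both ion forms is therefore a difference from PA, not from bare cells.

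Peptide amphiphiles are peptides joined to a fatty tail that assemble in water into fibres, and such fibres are used as scaffolds for cells. Cultured cells read the stiffness and adhesiveness of their surroundings through integrins and the actin skeleton. Free actin holds back the coactivators of serum response factor (SRF), and tension on the skeleton moves the coactivators YAP and TAZ into the nucleus, so both pathways switch on actin, myosin and matrix genes when filaments form. Neurons also answer potassium through membrane voltage, since raised potassium outside the cell depolarises it, opens calcium channels and induces activity genes such as Fos and Bdnf.

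Depth ran from 18532789 to 22906950 counts in the PA cultures, from 17924988 to 20640622 with the Na+ form and from 20573886 to 21914112 with the K+ form. The defining markers of neurons (Tubb3, Map2, Rbfox3, Snap25 and Syt1) summed to 4630 to 4675 CPM (counts scaled to a common library total) in PA, 4355 to 4511 with Na+ ICN and 3999 to 4112 with K+ ICN, which is the labelled cell type. Not every member fell. Snap25 ran from 246 to 258 CPM in PA, 243 to 251 with Na+ ICN and 265 to 279 with K+ ICN. Rbfox3 overlapped between groups, at 72.6 to 79.8 CPM in PA and 69.0 to 74.8 in the ICN libraries. Defining astrocyte markers summed to 278 to 295 CPM in PA, 327 to 339 with Na+ ICN and 327 to 344 with K+ ICN. Those of fibroblasts and meninges summed to 14.5 to 17.9, 20.4 to 23.2 and 24.9 to 28.9 CPM, and those of the oligodendrocyte lineage to 57.7 to 62.2, 64.9 to 72.0 and 65.7 to 74.6 CPM. The fibroblast rise lay in the collagen genes Col1a1 and Col3a1. Dcn, at 2.53 to 4.05 CPM in PA and 2.33 to 4.23 in the ICN libraries, and Lum, under 0.5 CPM throughout, overlapped between PA and ICN. The wider oligodendrocyte list of 20 genes did not rise, at 194 to 215 CPM in PA, 184 to 205 with Na+ ICN and 194 to 202 with K+ ICN, and the rise of the defining sum lay largely in Mbp, at 21.2 to 22.2 CPM in PA and 28.2 to 34.2 in the ICN libraries. Microglial, endothelial and red blood cell markers summed to under 5 CPM in every library. The cultures therefore held RNA of dividing and glial cells beside neurons, and its level moved with the groups. In bulk RNA, fewer cells of a type and less RNA per cell cannot be told apart.

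In the pooled comparison the ICN cultures had more RNA of many actin, myosin and matrix genes, mitochondrial messenger RNAs, ribosomal protein genes and astrocyte genes, and less RNA of Txnip and of some GABA, glutamate receptor and neurite genes. The neurite list had a median log2 change of -0.0056 with Na+ ICN and -0.10 with K+ ICN. Of 15183 genes tested, 2431 passed edgeR's quasi-likelihood test of the pooled comparison at an adjusted p of 0.05, and 4231 had an unadjusted p under 0.05. Requiring the same direction in both ions left 2389 genes, 15.7% of those tested, with 1230 higher (8.1%) and 1159 lower (7.63%). The other 42 moved in opposite directions in the ion groups. Upper-quartile scaling in place of TMM gave 1453 higher and 818 lower, so that 64.0% of calls were higher in place of 51.5%, and the median log2 change of all genes moved from 0.0024 to 0.0222. Without PA replicate 3 the count was 1533. The split by direction is therefore less certain than the genes at its ends.

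Rises and falls had different sizes. The median fold change was 1.24 among higher genes and 0.884 among lower genes. At least a 2-fold change was reached by 72 higher and 22 lower genes, and 485 higher and 136 lower genes passed 1.3-fold. Of the lower genes, 355 changed by less than 1.1-fold and 549 by 1.1-fold to 1.2-fold. The lower genes were also more abundant, with a median of 88.2 CPM against 29.7 CPM for the higher genes and 21.5 CPM for all genes tested. All 3 PA libraries lay on 1 side of all 6 ICN libraries in 1605 of the 2389 genes, as they did in 2201 (14.5%) of all genes tested.

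The same-direction rule asks little of the weaker ion. Of the 2389 genes, 898 passed in each ion tested alone against PA, 497 higher and 401 lower, 860 passed only with K+ ICN, 441 only with Na+ ICN and 190 in neither. Both tests used the same PA libraries, so their shared calls are not independent of each other. The direct comparison of K+ ICN with Na+ ICN does not use PA. It passed edgeR's test in 999 genes (6.58% of those tested) and in 383 of the 2389. Among these the rise was larger with K+ in 154 and with Na+ in 57, and the fall was larger with K+ in 143 and with Na+ in 29. A missed threshold does not show that the ions acted alike, so the interval of the difference was used. In 1389 of the 2389 genes (58.1%) the 95% interval of K+ ICN against Na+ ICN lay within 1.2-fold either way, and 147 of these nevertheless passed the test of a difference, by less than 1.2-fold. In 764 genes the ions neither differed by the test nor were bounded within 1.2-fold.

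**Figure D1:**
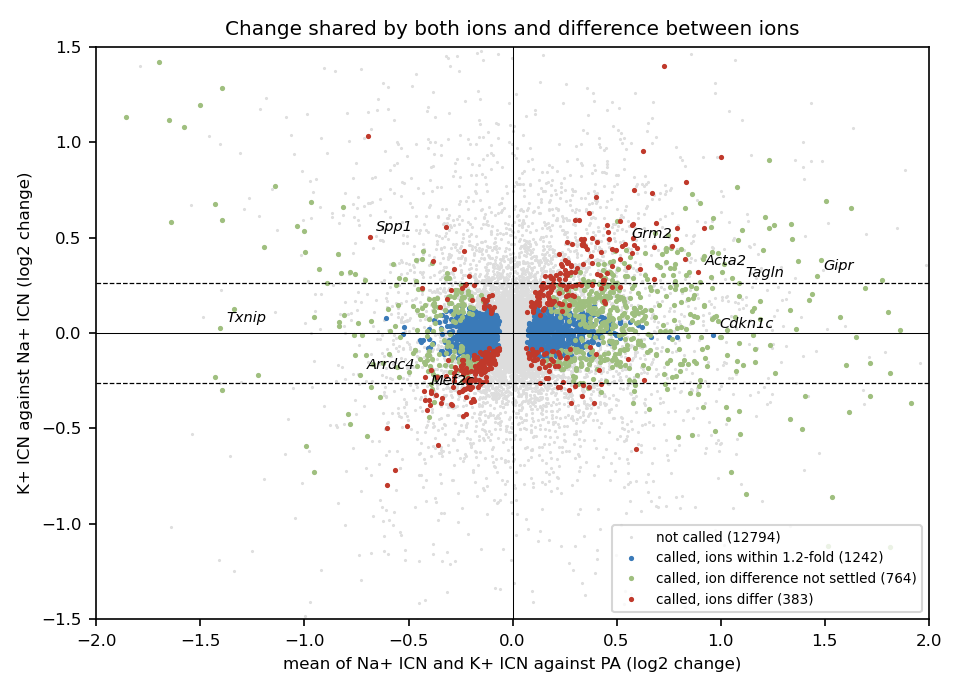
Log2 change of each tested gene with both ions against PA (horizontal axis) and of K+ ICN against Na+ ICN (vertical axis). Dashed lines mark 1.2-fold, and coloured points are the 2389 called genes, 383 of which differ between ions, 764 are unsettled and 1242 are bounded within 1.2-fold without differing. In all, 70 genes, 10 of them called, lie outside the axes. Called genes spread further to the right than to the left, with 72 higher and 22 lower genes at 2-fold or more.

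Many genes of the actin skeleton, contractility and the SRF and YAP pathways rose. Of 35 members tested, 24 were higher in the pooled comparison, 18 of them passing in each ion alone, and 0 lower, against 8.1% and 7.63% of all genes tested, with a median pooled log2 change of 0.34 against 0.0024 for all genes. Mural cells also express smooth muscle genes such as Tagln, Acta2 and Myl9. Defining mural markers summed to 16.9 to 17.8 CPM in PA, 18.6 to 24.9 with Na+ ICN and 19.4 to 24.6 with K+ ICN, and the endothelial and mural list, with 3 higher and 0 lower of 9 tested, to 44.3 to 49.9, 51.3 to 57.8 and 55.1 to 56.7 CPM. None of its 20 genes was at 0 in all libraries, and its part in the result was not tested. Tagln, an actin-binding protein of smooth muscle (chr9:45929628-45936058; positions are from RefSeq, GRCm38.p6), stood at 16.2, 16.7 and 16.6 TMM-scaled CPM in the PA cultures, 33.9, 29 and 33.1 with Na+ ICN and 44, 32.4 and 38.8 with K+ ICN. Every ICN culture was above every PA culture, and the rise was 2.13-fold (log2 1.09, SE 0.081, edgeR adjusted p = 2.14e-13). Acta2, smooth muscle actin (chr19:34240336-34255585), measured 29.5, 35.8 and 33.1 CPM in PA, 58.3, 51.6 and 53.5 with Na+ ICN and 74.1, 62 and 68.1 with K+ ICN. It rose 1.86-fold (log2 0.89, SE 0.063, edgeR adjusted p = 3.45e-14), further with K+ (K+ against Na+ 0.32, 95% interval 0.18 to 0.46, adjusted p = 0.00118).

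Flna, the filamin that crosslinks actin (chrX:74223461-74249854), rose from 266, 258 and 241 CPM in PA to 319, 339 and 330.4 with Na+ ICN and 350.2, 344 and 357 with K+ ICN. Its rise of 1.33-fold had an SE of 0.029 on the log2 scale and the smallest adjusted p of the list (5.5e-15, edgeR). Tpm4, a tropomyosin (chr8:72135288-72153142), rose 1.36-fold and differed between ions (K+ against Na+ 0.16, edgeR adjusted p = 0.0276). Myl9, the regulatory light chain of smooth and non-muscle myosin (chr2:156775408-156781657), measured 4.65, 6.29 and 5.51 CPM in PA, 11, 10.1 and 12.2 with Na+ ICN and 11.9, 10.2 and 11.7 with K+ ICN. Its 2.04-fold rise (log2 1.03, SE 0.13, edgeR adjusted p = 4.64e-08) left a difference between ions of 0.019 (95% interval -0.26 to 0.29). The matricellular protein Ccn2, a YAP target (chr10:24595442-24598683), rose 2.3-fold from 2.66, 2.64 and 3.19 CPM in PA to 4.71, 5.77 and 6.36 with Na+ ICN and 7.48, 7.57 and 7.8 with K+ ICN. The following members lay outside the naming rule and were chosen after their values were seen. The tropomyosin Tpm2 rose by 0.97 and the myosin heavy chain Myh9 by 0.29 on the log2 scale. The coactivators Yap1 (0.33) and Wwtr1 (0.36) and their DNA-binding partners Tead1 (0.29) and Tead2 (0.30) rose too.

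SRF binds a short A/T-rich element flanked by CC and GG, the CArG box. The promoter windows of the called members that hold a CArG box, other than Actg1, are shown to mark where that element lies. Windows run from 250 bases before to 50 bases after the start in RefSeq (GRCm38.p6), with the CArG box in capitals.
Myl9 (chr2:156775214-156775513, + strand): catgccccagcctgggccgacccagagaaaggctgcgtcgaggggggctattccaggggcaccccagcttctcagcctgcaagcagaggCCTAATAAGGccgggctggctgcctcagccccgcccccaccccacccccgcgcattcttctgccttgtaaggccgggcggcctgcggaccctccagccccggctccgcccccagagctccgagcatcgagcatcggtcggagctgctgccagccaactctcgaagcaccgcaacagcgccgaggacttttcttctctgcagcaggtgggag
Cnn2 (chr10:79988350-79988649, + strand): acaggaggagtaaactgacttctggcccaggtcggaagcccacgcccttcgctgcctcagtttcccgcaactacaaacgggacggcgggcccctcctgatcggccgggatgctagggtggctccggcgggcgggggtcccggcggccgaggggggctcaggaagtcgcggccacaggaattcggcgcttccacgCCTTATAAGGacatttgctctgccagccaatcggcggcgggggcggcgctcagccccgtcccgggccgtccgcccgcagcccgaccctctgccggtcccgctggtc
Vcl (chr14:20929148-20929447, + strand): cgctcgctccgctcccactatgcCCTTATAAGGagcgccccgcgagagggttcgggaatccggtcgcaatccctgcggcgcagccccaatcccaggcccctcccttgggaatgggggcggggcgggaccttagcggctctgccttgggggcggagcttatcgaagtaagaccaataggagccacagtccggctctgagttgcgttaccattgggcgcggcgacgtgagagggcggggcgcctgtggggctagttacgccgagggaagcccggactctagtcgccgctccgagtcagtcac
Srf (chr17:46556113-46556412, - strand): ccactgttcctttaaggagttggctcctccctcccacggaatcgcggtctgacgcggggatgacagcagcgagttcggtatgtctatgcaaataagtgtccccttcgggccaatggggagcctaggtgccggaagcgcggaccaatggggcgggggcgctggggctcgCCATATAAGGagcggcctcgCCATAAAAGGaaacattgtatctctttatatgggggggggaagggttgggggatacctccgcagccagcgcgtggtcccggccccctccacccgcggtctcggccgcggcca
Each window was searched on both strands. Of the 35 members tested, 30 had a window and 7 of these held a CArG box. Among windows of all genes, 535 of 32851 (1.63%) held one. The first count is of genes and the second of windows. The list was also made of SRF targets among others, so a higher share in it was built in and is no support. Of 20 called members with a window, 5 held the box, the fifth being the cytoplasmic actin Actg1. Filip1l and Myl6 held it too and were not called. The box began at position -161 from the start in Myl9, -56 in Cnn2, -227 in Vcl and -90 in Actg1, and Srf had 2, at -82 and -62. A match is a description of letters in the window, not of binding.

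The genes with these windows moved by different amounts. Cnn2, calponin 2, measured 12.3, 12.8 and 12.9 CPM in PA, 22.5, 21.5 and 22.4 with Na+ ICN and 23, 21.2 and 21.1 with K+ ICN. All ICN libraries were above PA, a 1.73-fold rise (SE 0.084 on the log2 scale, edgeR adjusted p = 8.23e-10) with an ion difference of -0.023 (95% interval -0.21 to 0.16). Vcl, vinculin of focal adhesions, rose 1.36-fold and was higher with K+ than with Na+ by 0.28 (edgeR adjusted p = 0.00718). Srf itself rose 1.15-fold, from 52.8, 48.9 and 46.1 CPM in PA to 59.9, 54.6 and 56.9 with Na+ ICN and 57.4, 53.6 and 56.6 with K+ ICN (edgeR adjusted p = 0.00773, and 0.113 without PA replicate 3). Actg1 rose by 0.18 on the log2 scale with Na+ ICN, and its 0.038 with K+ ICN did not pass (edgeR adjusted p = 0.263).

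More matrix genes rose than fell. Of 53 matrix proteins tested, 24 were higher and 5 lower (median log2 change 0.24). Bgn, the proteoglycan biglycan (chrX:73483601-73495936), measured 2.86, 3.98 and 3.37 CPM in PA, 6.89, 8.13 and 6.8 with Na+ ICN and 7.48, 8.04 and 8.33 with K+ ICN, a 2.23-fold rise (SE 0.15 on the log2 scale, edgeR adjusted p = 1.9e-07). The PA and ICN values did not overlap. Sparc, a collagen-binding glycoprotein, rose from 67.5, 67.4 and 65 CPM to 75.1, 86.9 and 83.2 with Na+ ICN and 106, 93.5 and 98.6 with K+ ICN, more with K+ (K+ against Na+ 0.28, edgeR adjusted p = 0.000151). Sparcl1, a relative secreted by astrocytes, went the other way between ions. It measured 123, 133 and 131 CPM in PA, 177, 180.5 and 177 with Na+ ICN and 136, 141 and 136 with K+ ICN, and the Na+ rise of 0.47 exceeded the K+ value of 0.10, which did not pass (edgeR adjusted p = 0.0834).

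Spp1, the phosphoprotein osteopontin (chr5:104435111-104441053), was the matrix gene with the largest fall among those the naming rule takes. It measured 26.9, 28.1 and 31.3 CPM in PA, 14, 15 and 16.1 with Na+ ICN and 20.4, 20.4 and 23.3 with K+ ICN, so that the K+ libraries lay between the other groups. Its pooled level was 0.622 times that of PA (log2 -0.68, SE 0.077, edgeR adjusted p = 2.72e-09), with a larger fall with Na+ (K+ against Na+ 0.50, adjusted p = 0.000152). The other 4 lower matrix genes, chosen after their values were seen, were Postn (-0.43 on the log2 scale), the perineuronal net proteins Vcan (-0.17), Ncan (-0.16) and Tnr (-0.13). The fibrillar collagen genes Col1a1 (0.86), Col1a2 (0.83) and Col3a1 (0.72) and the crosslinking enzyme Lox (0.85) rose. Col1a1 and Col3a1 are also defining fibroblast markers. The fibroblast and meningeal marker list had 5 higher and 1 lower of 11 tested, and its 20 genes summed to 99.1 to 101 CPM in PA, 97.9 to 106 with Na+ ICN and 112 to 117 with K+ ICN. None was at 0 in all libraries, and its part in the matrix result was not tested.

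Matrix receptors and proteases had 11 higher and 3 lower of 39 tested (28.2% and 7.69%, against 8.1% and 7.63% of all genes tested). Both collagen-activated receptor kinases were among them. Ddr2 (chr1:169972307-170110836) rose 1.97-fold, from 6.85, 7.96 and 6.51 CPM in PA to 13.2, 13 and 14.4 with Na+ ICN and 13.1, 15.1 and 15.1 with K+ ICN (log2 0.98, SE 0.11, edgeR adjusted p = 6.39e-09), and Ddr1 rose 1.28-fold. The difference between ions was 0.089 in Ddr2 (95% interval -0.15 to 0.33) and 0.015 in Ddr1 (-0.11 to 0.14). Mmp14, the membrane-bound collagenase, rose 1.34-fold (edgeR adjusted p = 1.5e-05). The inhibitor Timp2 fell to 0.91 of PA, with a log2 change of -0.20 with Na+ ICN and one of -0.069 with K+ ICN that did not pass (edgeR adjusted p = 0.11).

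The 8 genes with at least a 1.3-fold pooled change, at least 20 CPM and the smallest difference between ions were all higher in the ICN cultures. They were taken for that small difference, so its size is a description. Cdkn1c, the imprinted cyclin-dependent kinase inhibitor p57 (chr7:143458339-143461059), changed the most. It measured 25.9, 22 and 19.9 CPM in PA, 46.2, 45 and 41.1 with Na+ ICN and 47.3, 45.1 and 39.1 with K+ ICN. Every ICN library was above every PA library, with a 1.95-fold rise (log2 0.96, SE 0.074, edgeR adjusted p = 1.52e-12) and an ion difference of -0.0077 (95% interval -0.17 to 0.15). The metallothionein Mt2, which binds zinc and copper, rose 1.41-fold (edgeR adjusted p = 3.45e-07), and Tsc22d3, the glucocorticoid-induced leucine zipper GILZ, rose 1.41-fold. The basement membrane collagen Col4a1 rose 1.31-fold, the lysosomal enzyme Hexa 1.37-fold, the kinase Camk1 1.34-fold, the transcription cofactor Dach2 1.4-fold and the protocadherin Pcdhb18 1.37-fold. Pcdhb18 belongs to a cluster of near-identical genes and is uncertain. The widest of the 8 intervals of the ion difference, that of Pcdhb18, ran from -0.18 to 0.19 on the log2 scale.

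**Figure D2:**
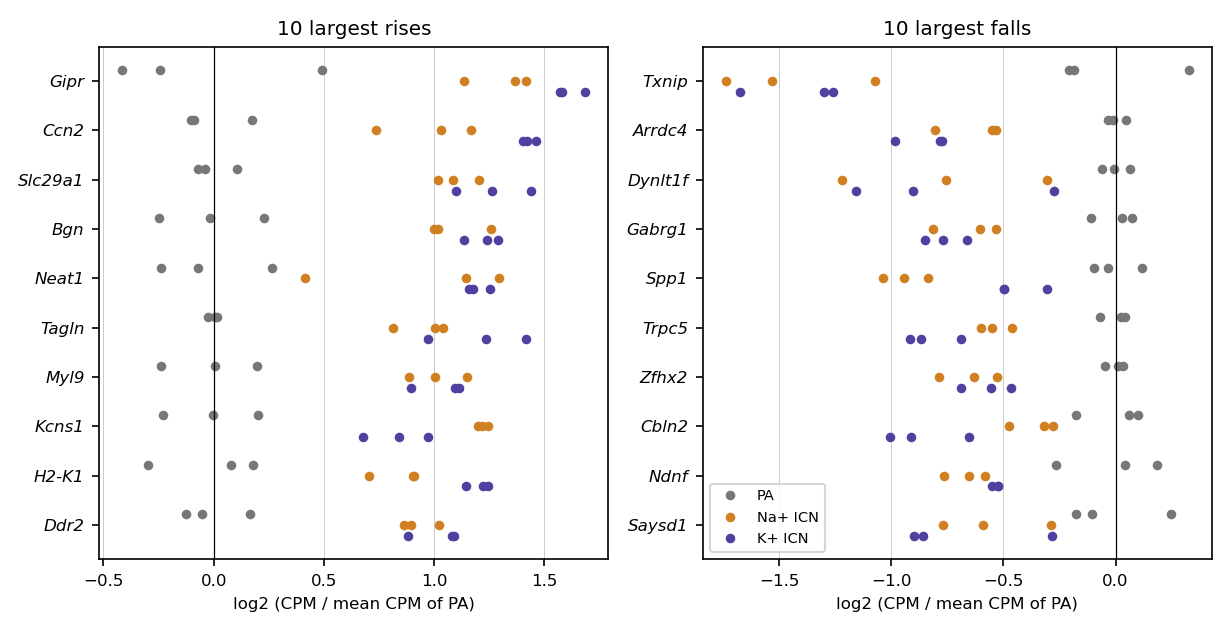
Each point is a library, placed by its log2 ratio of TMM-scaled CPM to the mean of the 3 PA libraries, for the 10 genes with the largest rise (left) and the 10 with the largest fall (right) under the naming rule. Grey points are PA, orange Na+ ICN and violet K+ ICN. No PA library lies within the range of the 6 ICN libraries of its gene, which the rule required. The Na+ and K+ libraries do not overlap in Gipr, Ccn2, Kcns1, H2-K1, Spp1, Trpc5, Cbln2 and Ndnf, of which Spp1 and Cbln2 passed edgeR's test of the difference.

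The largest rise under the naming rule, which asks for a mean of at least 5 CPM and no PA library inside the ICN range, was in a receptor gene. Gipr, the receptor for gastric inhibitory polypeptide, which signals through cyclic AMP (chr7:19156063-19170248), measured 7.36, 3.93 and 4.42 CPM in PA, 13.5, 11.5 and 14 with Na+ ICN and 15.5, 16.8 and 15.6 with K+ ICN. PA replicate 1 lay above the other PA libraries and below all 6 ICN libraries. The rise was 2.76-fold (log2 1.47, SE 0.14, edgeR adjusted p = 1.63e-09), and K+ against Na+ was 0.30 (95% interval 0.0099 to 0.59, adjusted p = 0.257). The list of Gs-coupled receptors and cyclic nucleotide genes did not move one way, with 5 higher and 9 lower of 44 tested, and 5 lower under upper-quartile scaling.

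Other large rises came from unrelated classes. Slc29a1, the equilibrative nucleoside transporter that carries adenosine (chr17:45585200-45599618), rose 2.28-fold, from 6.44, 5.81 and 5.68 CPM in PA to 12.7, 12.1 and 13.7 with Na+ ICN and 12.8, 14.3 and 16.2 with K+ ICN (SE 0.12 on the log2 scale, edgeR adjusted p = 1.4e-10). Neat1, the long non-coding RNA that builds paraspeckles (chr19:5824708-5845480), rose 2.13-fold. Na+ ICN replicate 1 measured 4.65 CPM, closer to the PA values of 3.32, 2.96 and 4.2 than to the other ICN libraries, which ran from 7.73 to 8.58. Kcns1, a silent potassium channel subunit (chr2:164163619-164171113), measured 3.48, 4.68 and 4.07 CPM in PA, 9.36, 9.48 and 9.64 with Na+ ICN and 6.52, 7.29 and 7.99 with K+ ICN, with a 2.04-fold rise.

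Txnip and its arrestin relative Arrdc4 fell with both ions. Txnip binds thioredoxin and restrains glucose uptake, and both genes are known targets of the glucose-sensing factors ChREBP and MondoA, which bind the carbohydrate response element. Txnip (chr3:96557957-96561857) measured 10.6, 15.1 and 10.4 CPM in PA, 3.61, 5.72 and 4.16 with Na+ ICN and 5.03, 4.89 and 3.78 with K+ ICN. The lowest PA library was well above the highest ICN library, and the pooled level was 0.377 times that of PA (pooled change -1.41 ± 0.15 SE on the log2 scale, adjusted p = 5.67e-10 by edgeR). K+ against Na+ was 0.027 (95% interval -0.35 to 0.41). Arrdc4 (chr7:68736994-68749238) measured 31.9, 30.2 and 30.7 CPM in PA, 21.1, 17.7 and 21.4 with Na+ ICN and 18, 15.6 and 18.1 with K+ ICN, 0.602 times the PA level (edgeR adjusted p = 2.58e-10). The Txnip promoter is shown because it was the only window of the 13 in the glucose-sensing list to hold that element, written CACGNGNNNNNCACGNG and in capitals in the sequence (RefSeq, GRCm38.p6).
Txnip (chr3:96557707-96558006, + strand): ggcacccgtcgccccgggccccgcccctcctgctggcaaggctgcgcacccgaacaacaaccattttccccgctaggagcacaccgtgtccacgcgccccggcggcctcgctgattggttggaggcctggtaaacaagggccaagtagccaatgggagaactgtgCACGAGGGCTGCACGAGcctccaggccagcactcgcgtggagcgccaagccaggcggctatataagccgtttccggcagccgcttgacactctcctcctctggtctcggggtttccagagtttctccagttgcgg
The element began at position -85 and was found on either strand in 16 of 32851 windows (0.0487%).

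None of the other 14 tested members of the glucose-sensing list passed as lower, and 3 passed as higher. The insulin-responsive glucose transporter Slc2a4 rose 2.11-fold, from 2.91, 2.1 and 1.49 CPM in PA to 4.38, 4.54 and 5.43 with Na+ ICN and 4.85, 4.14 and 3.97 with K+ ICN (edgeR adjusted p = 0.000117). The transporter Slc2a1, chosen after its value was seen, rose by 0.44 on the log2 scale. The neuronal transporter Slc2a3 passed with a pooled change of 0.19 that came from K+ ICN (0.34), while its 0.047 with Na+ ICN did not pass (edgeR adjusted p = 0.535).

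The remaining large falls were mostly in neuronal genes. Gabrg1, a subunit of the GABA-A receptor (chr5:70751047-70842617), measured 22.4, 24.7 and 25.5 CPM in PA, 13.8, 16.8 and 16 with Na+ ICN and 15.3, 14.2 and 13.5 with K+ ICN, 0.615 times the PA level (pooled change -0.70 ± 0.084 SE on the log2 scale, adjusted p = 1.33e-08 by edgeR). Trpc5, a calcium-permeable cation channel of growth cones (chrX:144377327-144688180), fell to 0.625 of PA and the homeobox gene Zfhx2 (chr14:55060268-55092381) to 0.657. Ndnf, a secreted factor of layer 1 interneurons and Cajal-Retzius cells (chr6:65671611-65712323), fell to 0.661. Cbln2, a synapse organiser that bridges neurexins and delta glutamate receptors, measured 16.7, 19.7 and 20.3 CPM in PA, 15.2, 13.6 and 15.6 with Na+ ICN and 10.1, 9.41 and 12 with K+ ICN. The K+ fall was the larger (K+ against Na+ -0.50, edgeR adjusted p = 0.00294). The calls of Dynlt1f and Saysd1 were less secure. Dynlt1f, which has near-identical copies and is uncertain, had a pooled adjusted p of 0.0257 by edgeR and lost the call without any of 5 single libraries. Saysd1 lost it without PA replicate 1 (adjusted p = 0.101).

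Most messenger RNAs of the mitochondrial genome rose. Its 2 strands are copied into long precursors, from which the ribosomal RNAs and 13 messenger RNAs for subunits of the respiratory chain are released, and both kinds can carry short A tails. Of the 13 messenger RNAs, 10 were higher, 9 of them passing in each ion alone, and 0 lower, with a median log2 change of 0.27. Mitochondrial genes took 4.15%, 4.33% and 4.33% of the counts in the PA libraries, 5.27%, 5.24% and 5.44% with Na+ ICN and 4.93%, 4.96% and 5.18% with K+ ICN. The 6 ICN libraries (5.17% ± 0.194, SD) were 0.901 percentage points above the 3 PA libraries (4.27% ± 0.101), with no overlap (exact permutation test, two-sided p = 0.02381, the smallest that 6 against 3 allows).

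The subunits of cytochrome c oxidase rose the most. mt-Co3 measured 3903, 3984 and 3959 CPM in PA, 5572, 5498 and 5829 with Na+ ICN and 4876, 4855 and 5034 with K+ ICN. It rose 1.33-fold (log2 0.42, SE 0.02, edgeR adjusted p = 5.91e-21), with the 3 groups fully apart and the Na+ libraries highest (K+ against Na+ -0.19, adjusted p = 1.14e-08). mt-Co2 rose 1.32-fold, mt-Co1 1.29-fold and the ATP synthase subunit mt-Atp6 1.28-fold. mt-Co2 and mt-Co1 were also higher with Na+ (K+ against Na+ -0.11 and -0.072, edgeR adjusted p = 0.000949 and 0.0375), and mt-Atp6 did not pass that test (-0.07, adjusted p = 0.0627). The 3 messenger RNAs that were not called, mt-Nd4l, mt-Nd5 and mt-Nd6, had pooled changes of 0.022, 0.10 and 0.25.

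The ribosomal RNAs of the same genome moved the other way. mt-Rnr2, the 16S RNA, measured 929, 922 and 971 CPM in PA, 857, 825 and 933 with Na+ ICN and 797, 780.2 and 823 with K+ ICN, and its PA and Na+ libraries overlapped. Its pooled level was 0.888 times that of PA (edgeR adjusted p = 0.000498), with -0.11 with Na+ not passing (adjusted p = 0.056) and -0.23 with K+. mt-Rnr1, the 12S RNA, fell by 0.09 on the log2 scale (adjusted p = 0.00973, and 0.108 without PA replicate 3). Its call came from K+ ICN (-0.14), and its -0.043 with Na+ ICN did not pass (edgeR adjusted p = 0.413). Library preparation selected A-tailed RNA, and whether tail length differed between groups was not tested. Genes for mitochondrial proteins in the nucleus did not follow the messenger RNAs. Of 44 respiratory chain genes, 0 were higher and 3 lower (6.82%, and 1 gene under upper-quartile scaling). Of 29 factors of mitochondrial gene expression, 0 were higher and 1 lower (3.45%). Among all genes tested 7.63% were lower, so neither list stood out by its falls. The lower members, chosen after their values were seen, were Ndufs1 (-0.16), Atp5g3 (-0.13), Atp5g1 (-0.13) and the regulator of mitochondrial biogenesis Ppargc1a (-0.26 on the log2 scale).

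**Figure D3:**
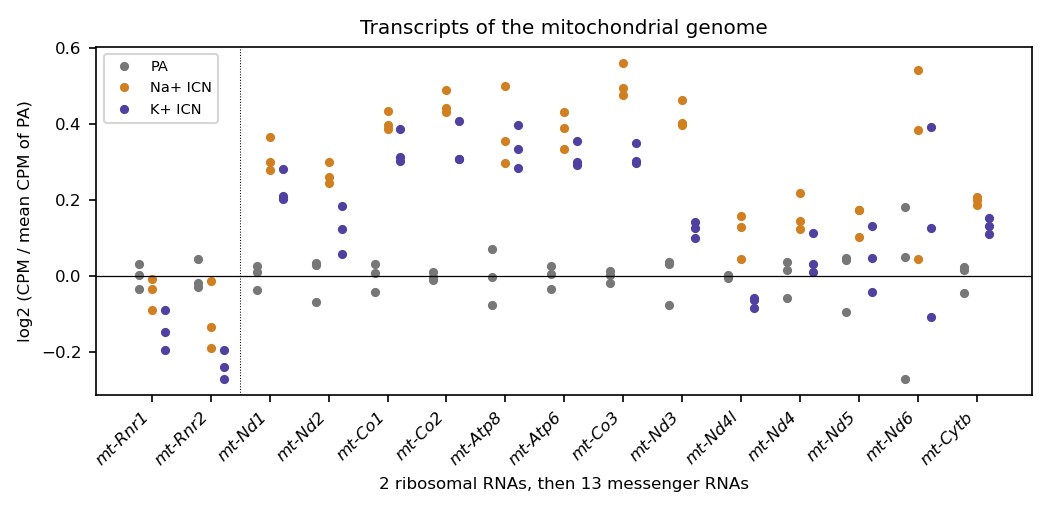
Each point is a library's log2 ratio of TMM-scaled CPM to the mean of the 3 PA libraries, for the 2 ribosomal RNAs and the 13 messenger RNAs of the mitochondrial genome. Grey points are PA, orange Na+ ICN and violet K+ ICN. The ICN libraries sit above PA in mt-Co1, mt-Co2, mt-Co3 and mt-Atp6, and the K+ libraries sit below PA in both ribosomal RNAs.

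Cytosolic ribosomal protein genes rose by small amounts. Of 77 tested, 40 were higher and 0 lower, and their median log2 change was 0.10. Rpl12 measured 198, 192 and 197 CPM in PA, 249, 253 and 249 with Na+ ICN and 244, 237 and 238 with K+ ICN, a 1.25-fold rise (SE 0.029 on the log2 scale, edgeR adjusted p = 7.14e-12) with no overlap between PA and ICN. Rpl23a rose 1.18-fold and Rpl4 1.15-fold, and Rpl4 rose further with Na+ (K+ against Na+ -0.093, edgeR adjusted p = 0.0248). Ribosomal protein genes have many near-identical pseudogenes, so their counts are uncertain. In 39 of the 40 the ions were bounded within 1.2-fold of each other, against 58.1% of the 2389 called genes. A small standard error makes that bound easier to meet, so the count does not show that the ions acted alike. Of the 40, 10 differed between ions by edgeR's test, and 20 passed in each ion alone. The list had a median log2 change of 0.148 for the Na+ form and 0.061 for the K+ form.

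The list of the integrated stress and unfolded protein responses moved both ways. Of 40 tested, 16 were higher, 6 lower and 18 not called. Atf5, a stress-induced transcription factor (chr7:44812256-44816658), measured 94.2, 89.5 and 84.6 CPM in PA, 133, 138 and 130.3 with Na+ ICN and 134, 149 and 129 with K+ ICN. It rose 1.52-fold (log2 0.60, SE 0.042, edgeR adjusted p = 3.75e-14) with an ion difference of 0.042 (95% interval -0.052 to 0.14). The arginine transporter Slc7a3 rose 1.6-fold, the serine synthesis enzyme Phgdh 1.29-fold and the mitochondrial serine hydroxymethyltransferase Shmt2 1.28-fold. Chosen after their values were seen, the transcription factor Atf4 (0.20) and its targets Trib3 (0.74), Chac1 (0.58) and Eif4ebp1 (0.57) rose on the log2 scale. The 6 that fell act in protein folding in the endoplasmic reticulum. They were Hspa5 (-0.17), Hyou1 (-0.20), Dnajb9 (-0.25), Hsp90b1 (-0.078), Calr (-0.075) and Manf (-0.14). Under upper-quartile scaling 3 fell.

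Antigen presentation genes rose among the interferon list, of which 9 were higher and 0 lower of 31 tested, with a median log2 change of 0.48. H2-K1, a class I heavy chain (chr17:33996012-34000619), measured 7.26, 5.22 and 6.78 CPM in PA, 12, 12 and 10.5 with Na+ ICN and 15.2, 15 and 14.2 with K+ ICN, a 2.02-fold rise (SE 0.12 on the log2 scale, edgeR adjusted p = 9.92e-09). Each PA library was below each ICN library. H2-D1 rose 1.4-fold and H2-Q4 2.57-fold, the latter from 0.869, 1.18 and 1.27 CPM in PA. Class I genes resemble each other closely, so reads may be split among them. Their shared light chain B2m rose 1.44-fold and differed between ions (K+ against Na+ 0.46, edgeR adjusted p = 0.00707). With Na+ ICN alone B2m changed by 0.30 and did not pass (adjusted p = 0.11). Chosen after their values were seen, Tap1, which loads peptides, rose by 0.66 and the transcription factor Irf1 by 0.91. Microglia also express these genes. The microglial and macrophage list had 1 higher (5.26%, against 8.1% of all genes tested) and 0 lower of 19 tested. It summed to 48.0 to 52.6 CPM in PA, 49.6 to 59.97 with Na+ ICN and 56.5 to 59.5 with K+ ICN. The part of microglia in the result was not tested.

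Astrocyte genes were higher in the pooled comparison in 19 of 26 members tested and lower in 1 (median log2 change 0.23), and 11 of these 20 passed in each ion alone. Gfap, the astrocyte intermediate filament (chr11:102887336-102897200), measured 12.4, 12.2 and 12.1 CPM in PA, 15.5, 17.3 and 17.9 with Na+ ICN and 18, 18.5 and 17.1 with K+ ICN, a 1.42-fold rise (SE 0.091 on the log2 scale, edgeR adjusted p = 4.53e-05). The PA and ICN libraries did not overlap. Clu, a secreted chaperone, rose 1.43-fold and was higher with K+ (K+ against Na+ 0.24, edgeR adjusted p = 0.00286), while Apoe, the lipid carrier, rose 1.29-fold and was higher with Na+ (-0.28, adjusted p = 2e-06). Apoe measured 99.9, 101 and 97.2 CPM in PA, 138, 149 and 137 with Na+ ICN and 117, 115 and 117 with K+ ICN. The member that fell was the protease inhibitor Cst3 (-0.12 on the log2 scale). The 29 genes of the list summed to 2005 to 2056 CPM in PA, 2246 to 2375 with Na+ ICN and 2218 to 2237 with K+ ICN.

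Genes of radial glia and progenitors were higher in 9 of 24, 3 of them passing in each ion alone, and lower in 0. Vim, the intermediate filament vimentin (chr2:13574311-13582826), rose from 262, 274 and 262 CPM in PA to 330.3, 338 and 318 with Na+ ICN and 403, 370.4 and 407 with K+ ICN (1.35-fold, SE 0.03 on the log2 scale, edgeR adjusted p = 4.03e-15). The 3 groups did not overlap, with K+ highest (K+ against Na+ 0.26, adjusted p = 2.16e-07). Nes, nestin, rose 1.18-fold and the antiproliferative gene Btg2 1.36-fold. The proneural factor Neurog2 rose 1.55-fold from 2.86, 2.42 and 3.89 CPM in PA (edgeR adjusted p = 0.0127) and did not pass without PA replicate 1 (0.0678) or 2 (0.112). Cell division genes were higher in 16 of 42, 6 of them passing in each ion alone, and lower in 0. The G1 cyclin Ccnd2 rose 1.28-fold, from 143, 142 and 135 CPM in PA to 181, 184 and 183 with Na+ ICN and 178, 173 and 177 with K+ ICN. Topoisomerase Top2a rose 1.21-fold, the proliferation marker Mki67 1.15-fold and the kinetochore motor Cenpe 1.27-fold, and the Top2a libraries of PA and ICN overlapped. Cenpe rose by 0.48 on the log2 scale with K+ ICN, and its 0.20 with Na+ ICN did not pass (edgeR adjusted p = 0.200). The p57 gene Cdkn1c, which blocks the cycle, rose more than Ccnd2, Top2a, Mki67 or Cenpe.

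Glutamate receptor and postsynaptic genes were lower in 17 of 47 and higher in 4, with a median log2 change of -0.09. Of these 21 genes, 10 passed in each ion alone and 11 differed between ions. Gria1, an AMPA receptor subunit (chr11:57011571-57330244), measured 305, 299.7 and 288 CPM in PA, 247, 243 and 253 with Na+ ICN and 242, 249.96 and 237 with K+ ICN. All ICN libraries were below PA, at 0.824 of its level (log2 -0.28, SE 0.029, edgeR adjusted p = 2.31e-10), with an ion difference of -0.026 (95% interval -0.093 to 0.041). The scaffold Shank1 fell to 0.807 of PA and further with K+ (K+ against Na+ -0.14, edgeR adjusted p = 0.00305). Grm2, a presynaptic metabotropic receptor, rose against the list, from 45.9, 44.9 and 45.8 CPM in PA to 61.5, 52.9 and 54.7 with Na+ ICN and 74.6, 81.4 and 77.9 with K+ ICN. Grin1, the obligatory NMDA receptor subunit, passed as higher through K+ ICN (0.42), and its 0.087 with Na+ ICN did not pass (edgeR adjusted p = 0.118). The other 2 higher members, chosen after their values were seen, were the NMDA receptor subunit Grin2d (0.62) and the AMPA receptor auxiliary subunit Cacng3 (0.43).

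Genes of GABA synthesis, GABA receptors and interneurons were lower in 12 of 37 and higher in 1. Reln, the glycoprotein reelin (chr5:21884454-22344705), measured 421, 431 and 422 CPM in PA, 327, 308 and 325 with Na+ ICN and 363, 373 and 386 with K+ ICN. The K+ libraries lay between PA and Na+ without overlap, and the pooled level was 0.814 of PA (SE 0.027 on the log2 scale, edgeR adjusted p = 7.14e-12; K+ against Na+ 0.23, adjusted p = 6.41e-07). Gabbr2, a subunit of the metabotropic GABA-B receptor, fell to 0.831 of PA with an ion difference of -0.0096 (95% interval -0.088 to 0.069). The receptor subunit Gabra5 was the member that rose (1.22-fold, edgeR adjusted p = 1.54e-07). Gad1, which makes GABA, measured 291, 279.8 and 288 CPM in PA, 224, 225 and 243 with Na+ ICN and 272, 265 and 287 with K+ ICN. Its pooled call came from Na+ ICN (-0.31), while -0.059 with K+ ICN did not pass (edgeR adjusted p = 0.276).

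Presynaptic genes moved both ways, 8 higher and 11 lower of 47, and 7 of these 19 passed in each ion alone. Upper-quartile scaling gave 8 higher and 8 lower. The calcium sensor Syt1 (chr10:108497650-109010980) measured 585, 584 and 587 CPM in PA, 492, 474 and 478 with Na+ ICN and 500.2, 508 and 499.8 with K+ ICN, 0.84 times the PA level (SE 0.024 on the log2 scale, edgeR adjusted p = 2.97e-11). The PA libraries were tightly grouped and above all 6 others. The active zone proteins Rims3 and Bsn fell to 0.847 and 0.887 of PA. Syn3, a synapsin, rose through Na+ ICN (0.37) and its 0.086 with K+ ICN did not pass (edgeR adjusted p = 0.0945). Syn1, another synapsin, named whatever its result, did not pass (0.052, SE 0.027, edgeR adjusted p = 0.209).

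Neurite cytoskeleton and growth genes were lower in 19 of 54 and higher in 3, by small amounts (median log2 change -0.04). Upper-quartile scaling gave 14 lower and 4 higher. The median was -0.0056 with Na+ ICN and -0.10 with K+ ICN. Of the 22 called genes, 9 passed in each ion alone and 12 differed between ions. The semaphorin co-receptor Plxna4 fell to 0.883 of PA, the adhesion molecules Chl1 and Nrcam to 0.903 and 0.89, and the guidance cue Sema3a to 0.788. Sema3a measured 49.3, 51.8 and 50.1 CPM in PA, 42, 42.1 and 39.2 with Na+ ICN and 38.1, 40.8 and 36.3 with K+ ICN, with an ion difference of -0.10 (95% interval -0.23 to 0.041). Plxna4 fell further with K+ (K+ against Na+ -0.17, edgeR adjusted p = 1.75e-05). Chl1 was called through K+ ICN (-0.23), and its -0.061 with Na+ ICN did not pass (edgeR adjusted p = 0.132). Tubb3, the neuronal tubulin, was called through K+ ICN (-0.28), since its -0.02 with Na+ ICN did not pass (edgeR adjusted p = 0.735).

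Voltage-gated sodium and potassium channel genes were lower in 12 of 51 and higher in 3, and 3 of these 15 passed in each ion alone. With upper-quartile scaling 9 were lower and 3 higher. The calcium-activated potassium channel Kcnma1 fell to 0.851 of PA, from 166, 169 and 166 CPM to 140.1, 137 and 148 with Na+ ICN and 140.1, 146 and 143 with K+ ICN (edgeR adjusted p = 6e-07). Its ion difference was 0.011 (95% interval -0.067 to 0.089). The sodium channel subunit Scn3b fell and the potassium channel Kcna6 rose mainly with K+ ICN (K+ against Na+ -0.24 and 0.25, edgeR adjusted p = 9.12e-06 and 0.00156). Excitatory cortical neuron markers were lower in 8 of 30 and higher in 3, and lower in 4 under upper-quartile scaling. Mef2c, a transcription factor of cortical neurons (chr13:83504017-83667079), measured 759, 779.8 and 766 CPM in PA, 635, 631 and 644 with Na+ ICN and 515, 517 and 514 with K+ ICN. The groups formed 3 separate levels, with a pooled level of 0.745 of PA (SE 0.023 on the log2 scale, edgeR adjusted p = 2.56e-19) and a larger fall with K+ (-0.30, adjusted p = 6.01e-12). The transcription cofactor Ldb2 fell to 0.774 and the layer 4 factor Rorb to 0.814 of PA. The exchange factor Rasgrf2, at 0.854 of PA, was called through K+ ICN (-0.37). Its -0.082 with Na+ ICN did not pass (edgeR adjusted p = 0.275).

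The marker sums of neuron classes did not all move one way. The defining excitatory markers summed to 557 to 565 CPM in PA, 571 to 593 with Na+ ICN and 547 to 570 with K+ ICN, so the Na+ libraries were above all others and the PA and K+ libraries overlapped. The defining inhibitory markers summed to 491 to 502 CPM in PA, 404 to 415 with Na+ ICN and 473 to 484 with K+ ICN, lower in every ICN library than in every PA library. The part of a changed mixture of cells in the neuronal and glial results was not tested.

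**Figure D4:**
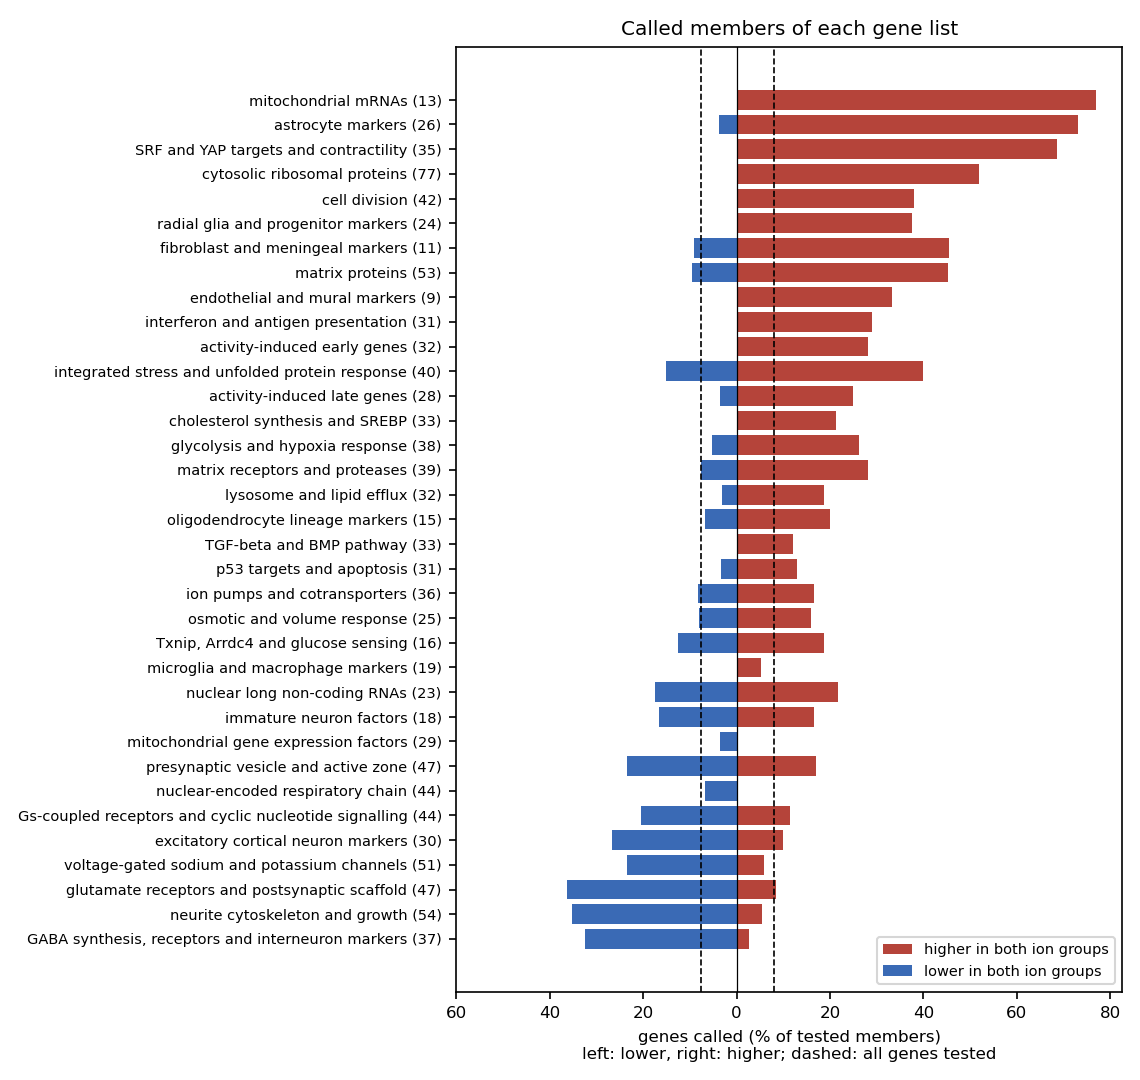
Percent of tested members of each gene list called higher (right, red) or lower (left, blue) with the same direction in both ions, with the number tested in brackets, for lists with at least 5 tested members. Dashed lines mark the 8.1% higher and 7.63% lower among all genes tested. Mitochondrial messenger RNAs, astrocyte markers and the SRF and YAP list stand at the top, and glutamate receptor, neurite and GABA lists at the bottom.

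Lower genes were longer than higher genes. The stretch of genome from start to end, introns included, had a median of 46301 bases in lower genes, 21942 in higher genes and 23617.5 in all tested genes with a RefSeq position. Among the 534 genes of 300000 bases or more, 23.6% were lower and 4.68% higher. Among the 3924 genes under 10000 bases, 3.54% were lower and 9.4% higher. The share of higher genes was largest, at 10.6%, among the 1687 genes of 100000 to 300000 bases, where 12.9% were lower. The median log2 change of the longest class was -0.07 with Na+ ICN and -0.06 with K+ ICN. Gene length and abundance moved together, with a median of 38.0 CPM in the longest class and 11.5 CPM in the shortest, and their parts were not separated. Of the named genes that fell, Trpc5, Reln, Gria1, Syt1, Gabbr2, Plxna4, Kcnma1, Sema3a and Ldb2 belong to the longest class. Dach2 and Syn3 belong to it too and rose in the pooled comparison.

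**Figure D5:**
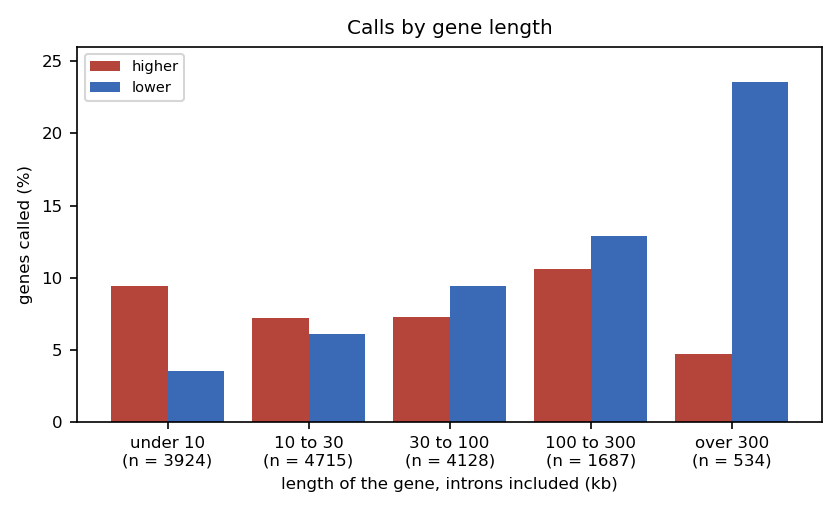
Percent of genes called higher (red) or lower (blue) with the same direction in both ions, by gene length from start to end. The number of genes tested in each class is under its bars, and the share of lower genes goes from 3.54% in the shortest class to 23.6% in the longest.

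Pooling hides genes that the ions moved apart. Of all genes tested, 33 passed separately for each ion in opposite directions, 19 higher with K+ ICN and lower with Na+ ICN and 14 the reverse. Omg, a myelin-associated inhibitor of neurite growth that neurons also make, measured 24.1, 24.6 and 24.2 CPM in PA, 20.8, 17.5 and 18.1 with Na+ ICN and 35.5, 29.6 and 31.9 with K+ ICN. PA lay between the ion groups, and the pooled change was 0.02 (edgeR adjusted p = 0.897). Rgs4, a brake on G protein signalling, measured 214, 189.8 and 223 CPM in PA, 171, 159 and 165 with Na+ ICN and 284, 285 and 282 with K+ ICN. The vesicle protein Sv2c, the potassium leak channel Kcnk9 and the Fos relative Fosl2 also rose with K+ and fell with Na+, and the adaptor Sla fell with K+ and rose with Na+.

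Activity genes show what the same-direction rule lets through. Fos measured 31.3, 28.2 and 31.8 CPM in PA, 31.4, 31.6 and 31.4 with Na+ ICN and 51.9, 49.5 and 53.6 with K+ ICN. All Na+ libraries lay within the PA range, yet Fos counts among the 2389, because its 0.045 with Na+ ICN has the sign of its 0.76 with K+ ICN (K+ against Na+ 0.71, edgeR adjusted p = 1.65e-10). Bdnf, a neurotrophin, measured 43.3, 40.1 and 43.9 CPM in PA, 40.6, 35.5 and 39.9 with Na+ ICN and 62.7, 66.7 and 64.2 with K+ ICN. It passed the pooled test (0.23, edgeR adjusted p = 0.00277) and was left out by its -0.13 with Na+ ICN. Of the 42 genes left out in this way, 35 passed with K+ ICN alone and 7 with Na+ ICN alone, and the largest absolute change of the weaker ion was 0.13. Early activity genes were higher in 9 of 32 and lower in 0, and 5 of the 9 differed between ions.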

How the data were processed

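RNA-seq of 9 cultures was analysed, with 17924988 to 22906950 counts per library. The authors deposited whole-number counts per gene symbol. Reads were processed with Trim Galore, STAR and RSEM on GRCm38 (mm10), per the submitters' processing notes; the counting tool, annotation and strandedness were not given in the sources used here. Near-identical genes (class I genes, ribosomal proteins, clustered protocadherins) are uncertain. From the counts, edgeR 4.0.16 (R 4.3.3, limma 3.58.1) kept 15183 of 40773 symbols with 99.9% of counts, scaled by TMM and fitted a quasi-likelihood model with 3 groups. P-values were Benjamini-Hochberg adjusted over all genes tested, with a threshold of 0.05. DESeq2 1.42.0 was an alternative. The fit was checked on simulated counts. Some genes that the naming rule takes are not reported here. The members and gene lists were chosen with earlier results of these data known, and 8 further lists after values were seen. Named genes were the 10 largest rises and falls (mean of at least 5 CPM, no PA library inside the ICN range), up to 4 per described list by smallest p, 8 with the smallest ion difference, up to 6 opposite genes, called list members with a promoter motif, and Bdnf, Fos, Tubb3, Mef2c, Gfap, Apoe, Txnip, Gad1, Syn1 and mt-Co1.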

Additional observations from a re-analysis of the deposited data

Results flagged for a closer look

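The genes listed here, all named in the text, had a difference between K+ ICN and Na+ ICN that passed edgeR's quasi-likelihood test over all genes. Each value in brackets is the log2 change of K+ ICN against Na+ ICN, with 3 libraries each. The genes that moved in opposite directions from PA were Omg (0.784), Rgs4 (0.782), Sv2c (0.546), Kcnk9 (0.551), Fosl2 (0.467) and Sla (-0.558). The activity genes were Bdnf (0.738) and Fos (0.715).

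Genes higher in the pooled comparison with the larger rise in K+ ICN were Acta2 (0.322), Tpm4 (0.155), Sparc (0.28), Clu (0.241), Vim (0.26), B2m (0.458), Slc7a3 (0.284), Grm2 (0.468), Grin1 (0.33), Gabra5 (0.198), Kcna6 (0.246), Slc2a3 (0.29) and Vcl (0.28). Those with the larger rise in Na+ ICN were Sparcl1 (-0.369), mt-Co3 (-0.195), mt-Co2 (-0.112), mt-Co1 (-0.0718), Rpl4 (-0.0935), Apoe (-0.282), Syn3 (-0.282) and Actg1 (-0.142). Genes lower in the pooled comparison with the larger fall in K+ ICN were Cbln2 (-0.498), mt-Rnr2 (-0.125), mt-Rnr1 (-0.0992), Shank1 (-0.143), Plxna4 (-0.171), Chl1 (-0.172), Rims3 (-0.139), Scn3b (-0.239), Mef2c (-0.305), Ldb2 (-0.323), Rasgrf2 (-0.292) and Tubb3 (-0.257). Those with the larger fall in Na+ ICN were Spp1 (0.505), Timp2 (0.134), Reln (0.226) and Gad1 (0.251).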

How the results depend on the processing

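The count of 2389 genes was 2424 with DESeq2 size factors in edgeR, 2191 with DESeq2, 2353 with limma voom, 2350 without a filter, 2471 with a CPM filter and 2583 with the replicate number as a block. Each gene's group mean was subtracted from its log2 CPM, and the remainders were correlated between libraries of different groups. Same-numbered libraries gave correlations of -0.0156 to 0.0483 and differently numbered ones of -0.0311 to 0.0402. Between Na+ ICN and K+ ICN the same-numbered pairs were at 0.0398, 0.0279 and 0.0483, and the others at -0.0311 to -0.00771. Whether the numbers pair the libraries is therefore not settled. Testing against 1.2-fold gave 162 genes, 135 higher and 27 lower, of which 56 passed in both ions, 44 differed between ions and 32 were bounded, with 0 opposite. Treating all ICN libraries as 1 group gave 1403 genes, 783 higher and 620 lower, 148 differing and 843 bounded. Leaving out each library gave 1533 to 2324 genes, 813 to 1173 higher and 720 to 1151 lower, 597 to 766 called in both ions, 19 to 33 opposite, 275 to 325 differing and 882 to 1275 bounded. The mitochondrial share differed by 0.843 to 0.949 percentage points, and by 1.05 for Na+ and 0.756 for K+ alone, where 3 against 3 cannot go below an exact permutation p of 0.1. Near-zero pooled changes turned sign. Sla was 0.00825 and Sv2c 0.000444 under upper-quartile scaling, and 0.0124 and 0.01 with ICN as 1 group. Over libraries left out in turn, the pooled log2 change ran from -0.0185 to 0.0498 in Omg, -0.014 to 0.101 in Rgs4, -0.0734 to 0.0256 in Sla, -0.0441 to 0.0106 in Sv2c, -0.0726 to 0.00549 in Kcnk9 and -0.0247 to 0.0276 in Fosl2. Without PA replicate 3 there were 1533 genes, 597 called in both ions, 19 opposite and 882 bounded. Without PA replicate 1 there were 757 lower genes, and without PA replicate 2 there were 21 opposite genes. With ICN as 1 group the edgeR calls of Sparcl1, mt-Rnr1, Grm2, Grin1, Chl1, Syn3, Scn3b, Rasgrf2, Slc2a3, Bdnf, Fos, Tubb3, Gad1 and Actg1 were lost, with adjusted p from 0.0554 (Chl1) to 0.557 (Bdnf). Of 95 named genes that were called, 38 kept call and sign under all 18 alternatives. Genes with few counts had wider errors (log2 SE 0.15 in Txnip, 0.02 in mt-Co3), and 3 libraries per group limit small differences. The cause of these changes was not tested.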

Other observations

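Several gene groups outside the main account moved in the pooled comparison, and the genes named here were chosen after their values were seen. Among all genes tested, 8.1% were higher and 7.63% lower. Glycolysis and hypoxia genes were higher in 10 of 38 and lower in 2. The growth factor Vegfa (0.51 on the log2 scale), the enolase Eno2 (0.34) and the aldolase Aldoa (0.18) rose, and the hypoxia-induced genes Bnip3 (-0.26) and Ndrg1 (-0.39) fell. Lysosomal and lipid efflux genes were higher in 6 of 32 and lower in 1, with the cathepsin Ctsz at 0.40 and the peptidase Tpp1 at 0.34. Late activity genes were higher in 7 of 28 and lower in 1, with the pentraxin Nptx2 at 0.43 and the neuropeptide precursor Vgf at 0.33, while the neuropeptide Cort was at -0.59. The median log2 change of this list was -0.052 with Na+ ICN and 0.34 with K+ ICN. Of its 8 called genes, 1 passed in each ion alone and 4 differed between ions. Oligodendrocyte lineage genes were higher in 3 of 15 and lower in 1. The myelin gene Mbp (0.56) and the tight junction gene Cldn11 (2.16) rose, and the precursor receptor Pdgfra (-0.52) fell.

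Further groups were put together after the values were seen, so their counts are descriptions. Teneurins, latrophilins and FLRTs, adhesion proteins that pair across synapses, were lower in 9 of 14 and higher in 0. Non-clustered protocadherins were lower in 6 of 10 and higher in 2. Clustered protocadherins were higher in 27 of 58 and lower in 2, and they share constant exons, so their counts are uncertain. Genes of the insulin-like growth factor axis were higher in 7 of 15 and lower in 2. Imprinted genes were higher in 7 of 36 and lower in 6. Elongation factors and other messenger RNAs with a terminal oligopyrimidine tract were higher in 9 of 17 and lower in 0.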
